A study of Mus musculus with 360 samples.

Results

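The genes described are 10 ligands of the BMP and GDF family, namely Bmp2, Bmp3, Bmp4, Bmp5, Bmp6, Bmp7, Bmp8a, Gdf5, Gdf6 and Gdf10. They were chosen by name, and all 10 were among the 24015 genes of the tables. Their reads were counted in single cells of wild-type CD-1 mice at postnatal day 3. The study set the posterior frontal suture (PF), which fuses early in life, against the sagittal (SAG) and coronal (COR) sutures, which remain patent, and used the tibial growth plate (GP) as reference for skeletal stem and progenitor cells. Sutures are the fibrous joints of the skull vault, and the pieces cut out held bone fronts, suture mesenchyme, dura and periosteum. Cells were sorted as CD51+ and CD200+, and without CD105, 6C3, Thy1.1, Thy1.2, Tie2, Ter119 or CD45. No group carried an engineered allele or received a treatment.

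Cells from many mice were pooled, and no animal is named for any cell. Each tissue is therefore 1 sample, with 2 plates of cells as its only spread, and no test or p-value between tissues was possible. Plate and tissue cannot be told apart. Of 360 cells, 325 passed a filter of at least 500 genes and 10000 reads. These were 87 of PF (34 on plate 1 and 53 on plate 2), 86 of SAG (30 and 56), 74 of COR (16 and 58) and 78 of GP (20 and 58). Levels are given in CPM, here the reads of a gene per 1000000 reads other than those of the ribosomal RNA gene Rn45s. Summed over a plate these other reads ran from 3237921 on COR plate 1 to 28799387 on COR plate 2. SAG plate 2 stood apart, with 86.8% of its reads from Rn45s and a median of 875 genes per cell, against 20.2% to 31% and 2112 to 3867 genes on the other plates. SAG results are therefore also given by plate or for plate 1 alone. For 1 cell of SAG plate 1 the description named a PF plate while the title and source said SAG. It held 56 reads of Bmp2, 55 of Bmp4, 31 of Gdf5 and 39 of Gdf10.

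BMPs and GDFs are secreted dimers that assemble type I and type II receptor kinases on the receiving cell, which then phosphorylate SMAD1, SMAD5 and SMAD9. Extracellular antagonists such as noggin, chordin and gremlin bind the ligands and keep them from their receptors. In the skeleton the family is known for inducing bone and cartilage, for placing the joints and for shaping the skull.

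The ligands fall into subgroups by sequence. BMP2 and BMP4 are the classical bone-inducing pair. BMP5, BMP6, BMP7 and BMP8 form another subgroup, GDF5 and GDF6 one that is known from joint formation, and BMP3 and GDF10 (also called BMP3B) a divergent pair, of which BMP3 is known to oppose other BMPs. Where subgroup members are alike in sequence, a read can be assigned only through the bases in which they differ. Bmp8a had 1 close copy, Bmp8b, a neighbour on chromosome 4. Their coding sequences of 1200 bases each differed at 144 positions, an identity of 88%, and the longest run of identical bases was 182, longer than 1 sequencing read of 150 bases. Of the windows of 150 bases in the exons of Bmp8a, 1.37% also occurred in Bmp8b. The stretch of coding bases 901 to 990 is shown to let this likeness be seen, 5′ to 3′ in the mm9 transcripts, with the 7 bases that differ in capitals.
Bmp8a: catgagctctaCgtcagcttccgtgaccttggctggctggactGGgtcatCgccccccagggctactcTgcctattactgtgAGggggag
Bmp8b: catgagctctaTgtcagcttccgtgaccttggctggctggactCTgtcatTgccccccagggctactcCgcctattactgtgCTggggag
Bmp8b had 1 read in PF and 0 in SAG, COR and GP, so the reads given for Bmp8a had next to no counterpart in its copy.

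Other overlaps bear on single members. Gdf5 shared 35% of such windows with Gm15557, a gene annotated over it on the other strand. Whether the authors' counting used strand is not given in the sources used here, so reads of Gdf5 and of that partner cannot be told apart. The same holds for Bmp5 and the antisense RNA Gm16662. Neither Gm15557 nor Gm16662 was among the genes of the tables, so no reads were given for them. Exons of Bmp4 overlap Gm15217 on the other strand, which had 0 reads in every tissue. Bmp6 shared 2.47% of its windows with Txndc5, which lies on the other strand and was read at 398 CPM in SAG and 811 to 986 CPM in the other tissues.

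In sum, the 10 ligands made up 285 CPM in PF (316 on plate 1 and 278 on plate 2), 1285 in SAG (759 and 1635), 275 in COR (348 and 266) and 209 in GP (276 and 195). Both SAG plates lay above all 6 plates of the other tissues, by at least 2-fold, while the COR plates overlapped those of PF and GP. The lower PF plate, at 278 CPM, was just above the higher GP plate, at 276. SAG plate 2 is the plate rich in Rn45s, and with Rn45s counted in the totals the sum was 253.8 CPM for SAG, 208.8 for PF, 202.2 for COR and 145.0 for GP. On SAG plate 1, Rn45s took 24.5% of reads, within the range of the plates of the other tissues.

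The make-up of the sum differed between tissues. Gdf10 held 50% of the ligand reads in PF (53.7% and 49% on its plates), 56.2% in SAG (38.1% and 61.8%) and 43.3% in COR (38.5% and 44.1%), but 15.3% in GP (22.3% and 13.2%). Bmp3 was the next in PF with 27.4% (20.1% and 29.4%), in SAG with 30.8% (15.2% and 35.6%) and in COR with 19% (38.1% and 16.2%), and held 2.98% in GP. Gdf5, with 23.2%, was above Bmp3 on SAG plate 1, and on COR plate 2 so was Bmp8a, with 17.6%. In GP the largest part was Bmp5, with 41.5% (44.5% and 40.6%), followed by Gdf10 and by Gdf5 with 13.5%. Bmp5 held 0.0116% in PF, 1.19% in SAG and 2.32% in COR.

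**Figure D1:**
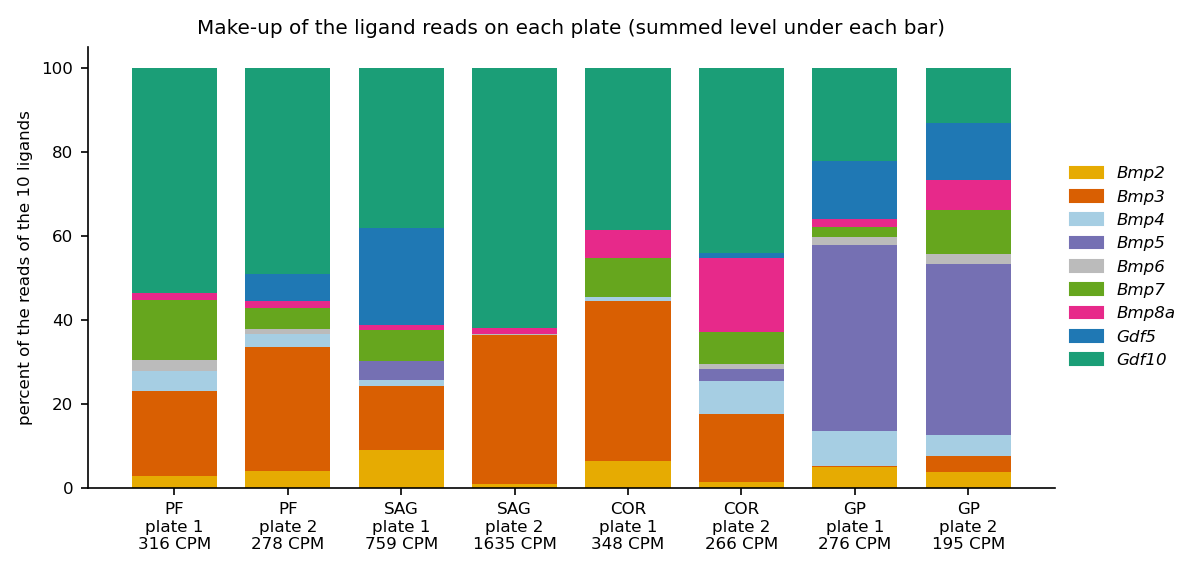
Share of each ligand (y axis, percent) in the reads of the 10 ligands on each of the 8 plates (x axis, with the summed level in CPM under each bar). Gdf10 and Bmp3 make up most of the bar on all 6 suture plates, Gdf5 holds 23.2% on SAG plate 1, and Bmp5 is the largest part on both GP plates. Gdf6 had no reads.

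Of the divergent pair, Gdf10 (chr14:34736773-34749700, plus strand, mm9) was read at 170 and 136 CPM on the PF plates, 289 and 1011 in SAG, 134 and 117 in COR, and 61.5 and 25.7 in GP. No plates of neighbouring tissues overlapped in the order SAG, PF, COR and GP, although the lower PF plate, with 136 CPM, and the higher COR plate, with 134 CPM, were close. Over both plates the level was 723 CPM for SAG (95% Poisson interval 710 to 736), 143 for PF (138 to 147), 119 for COR (115 to 123) and 31.9 for GP (29.9 to 34.1). These intervals cover counting error only, since PCR copies are counted and cells of a tissue are no replicates. On SAG plate 1, 1 cell gave 43.2% of the Gdf10 reads, and without it the level was 173 CPM, close to that of PF plate 1. On COR plate 1 only 2 cells had Gdf10 reads, and 1 of them gave 74.7%. Without it that plate was at 35.6 CPM, below GP plate 1.

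Bmp3 (chr5:99283458-99309979, plus strand) was read at 63.6 and 81.6 CPM in PF, 115 and 582 in SAG, 132 and 43.1 in COR, and 0.607 and 7.39 in GP. All suture plates were above both GP plates. SAG and PF did not overlap, but PF overlapped COR, and SAG plate 1 lay below COR plate 1. The Bmp3 level on GP plate 1 rested on 3 reads of 1 cell.

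In the BMP5 subgroup, the ligands differed in where they were read. Bmp5, the gene of the short ear mouse mutant (chr9:75623171-75748117, plus strand), was read at 123 and 78.9 CPM in GP, 34.9 and 2.32 in SAG, 0 and 7.08 in COR, and 0 and 0.041 in PF. Both GP plates were above the 6 suture plates, SAG overlapped COR, and COR overlapped PF. In PF there was 1 read in 30299518. Against that 1 read the ratio of levels was 2621 for GP (95% counting interval 470 to 103571), 465 for SAG (82.7 to 18425) and 193 for COR (34.2 to 7657). In SAG, 1 cell gave 66.7% of the reads, and in COR 1 cell gave 63.7%.

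Bmp8a, known from the male germ line (chr4:122989888-123020495, minus strand), was read at 23.5 and 46.8 CPM in COR, 9.02 and 22.6 in SAG, 5.67 and 13.8 in GP, and 4.73 and 4.72 in PF. The COR plates lay above all others, narrowly so over SAG plate 2. SAG overlapped GP, and GP lay above PF. Few cells carried these reads, since 1 cell gave 79.7% of them in PF, 79.1% in SAG, 43.8% in GP and 30.7% in COR. On COR plate 1 alone, 1 cell gave 94.7% of the reads. Without it that plate was at 1.27 CPM, below every plate of the other tissues. The place of COR plate 1, and each difference counted below for Bmp8a with COR higher, therefore rest on that cell. On GP plate 1 and on each SAG plate all Bmp8a reads came from 1 cell. The differences counted below for Bmp8a with GP or SAG above PF therefore rest on single cells as well.

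Bmp7, which is needed for the kidney and the eye (chr2:172693513-172765822, minus strand), showed no order of tissues. It was read at 45.3 and 13.9 CPM in PF, 55.7 and 0 in SAG, 32.4 and 20.3 in COR, and 6.48 and 20.4 in GP. All neighbours in the order overlapped, and the tissue levels lay between 17.9 and 22.3 CPM. Bmp6, a regulator of iron balance in the liver (chr13:38436995-38592183, plus strand), was read at 8.28 and 3.69 CPM in PF, 0 and 4.16 in SAG, 0 and 3.51 in COR, and 5.06 and 4.93 in GP. No more than 3 cells of any tissue had a read of it, and its level was below 10 CPM in each tissue. Neighbouring tissues overlapped except PF and COR, at 3.69 and 3.51 CPM on their nearest plates.

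Of the classical pair, Bmp2 (chr2:133377895-133388621, plus strand) was read at 8.79 and 11.3 CPM in PF, 69 and 12.3 in SAG, 22.2 and 3.37 in COR, and 13.4 and 7.18 in GP. The 2 SAG plates lay above those of PF, while PF, GP and COR overlapped. Bmp4 (chr14:47003195-47010344, minus strand) was read at 15.6 and 8.57 CPM in PF, 10.8 and 0 in SAG, 3.09 and 21.6 in COR, and 23.1 and 9.99 in GP. All neighbouring tissues overlapped. The reads of Bmp2 on SAG plate 1 came from 13 of 30 cells, and the cell with most of them gave 21.7%.

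In the joint subgroup, Gdf5, the gene of the brachypodism mutant (chr2:155766759-155771103, minus strand), was read at 176 and 0.774 CPM in SAG, 37.6 and 26.3 in GP, 0 and 17.9 in PF, and 0 and 3.30 in COR. The value of SAG plate 1 was the highest and that of SAG plate 2 was below both GP plates. GP lay above PF, and PF overlapped COR. All 95 reads of COR came from 1 cell, and in PF 1 of 2 cells gave 84.4%. On GP plate 2, 1 cell gave 66.2%, and without it that plate was at 9.15 CPM, below PF plate 2. Gdf6, whose loss is known to fuse the coronal suture (chr4:9771519-9789492, plus strand), had 0 reads in all 360 cells. Taking 3 reads as the limit for a count of 0, its level could be up to 0.174 CPM for SAG, 0.105 for GP, 0.0990 for PF and 0.0936 for COR. The limit for the share of cells with a read was 4.05% for COR, 3.85% for GP, 3.49% for SAG and 3.45% for PF.

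**Figure D2:**
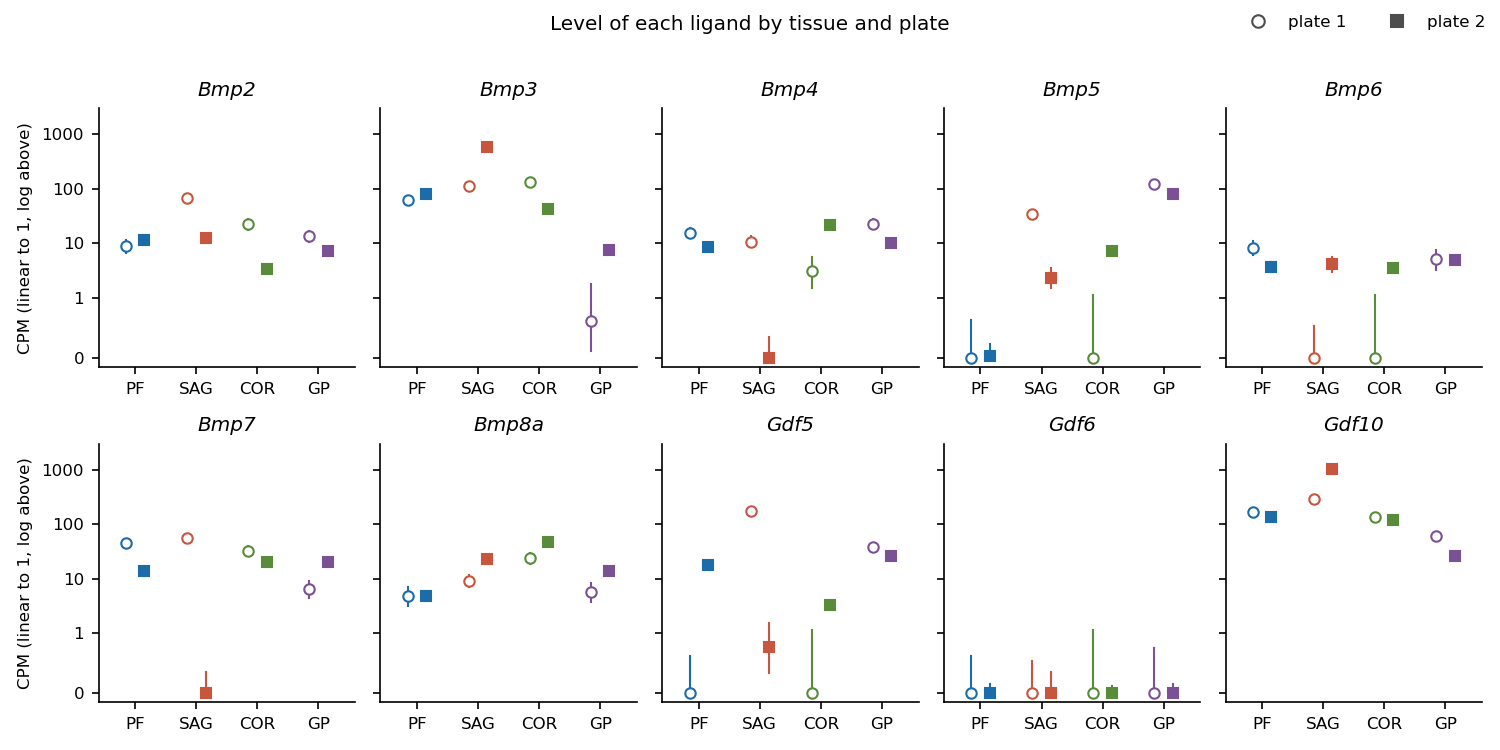
Level of each of the 10 ligands in CPM (y axis, linear from 0 to 1 and logarithmic above) by tissue, with open circles for plate 1, filled squares for plate 2 and bars for the exact 95% Poisson interval of the reads. Gdf10 was read on all 8 plates with the highest values in SAG, Bmp5 on both GP plates at 78.9 CPM or more, and Gdf6 on none.

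Long transcripts give more reads, so levels of different genes were compared per kilobase of exon. In CPM per kilobase, Gdf10 came first in PF with 38.1, in SAG with 193 and in COR with 31.8. Bmp3 was second in PF with 25.1 and in SAG with 127. The order on SAG plate 1 was Gdf10 with 77.2, Gdf5 with 75.8 and Bmp3 with 37. In COR the second was Bmp8a with 18.5, just above Bmp3 with 16.7, but on COR plate 1 Bmp3 came first with 42.6, before Gdf10 with 35.8 and Bmp8a with 9.76. On that plate 1 cell gave 56.6% of the Bmp3 reads, 74.7% of those of Gdf10 came from 1 cell and 94.7% of those of Bmp8a. In GP the order was Bmp5 with 21.5, Gdf5 with 12.2 and Gdf10 with 8.53, and Bmp5 was first on both plates. Bmp2 was below Bmp4 in PF, with 3.05 against 4.47, in COR with 1.48 against 8.86, and in GP with 2.32 against 5.51, and above it in SAG with 9.82 against 1.93. Each of these held on both plates except in COR, where Bmp2 was above Bmp4 on plate 1, with 6.25 against 1.39.

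Tissues were then compared in 6 pairs. A difference was counted when the gene had at least 10 CPM in at least 1 tissue, differed by at least 2-fold on the log2(CPM+1) scale, and had the same sign in all 4 comparisons of a plate of one tissue with a plate of the other (2 where SAG plate 1 stands alone). Of the 10 ligands 8 reached 10 CPM, each in at least 2 tissues, and Bmp6 and Gdf6 did not. Of all genes 10686 reached it. The share of these that met the count is given beside each number, and a number of ligands near that share says nothing about the ligands. The scale understates differences of low genes.

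Between the PF and COR sutures 1 of the 8 ligands met the count. None of the 8 was higher in PF (5.27% of all genes were) and 1 was higher in COR (6.60% of all genes), namely Bmp8a, with a log2 ratio of PF to COR of -2.99 (range over plates -3.07 to -2.09). The ratio for Gdf10 was 0.26 and that for Bmp3 was 0.57, with plates overlapping for Bmp3.

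Against SAG, 5 ligands were lower and none higher in PF. Those higher in SAG (12.4% of all genes, with 16.9% higher in PF) were Gdf10, with a log2 ratio of PF to SAG of -2.33 (-2.88 to -0.77), Bmp3 with -2.33 (-3.17 to -0.49), Bmp8a with -1.67 (-2.05 to -0.81), Bmp2 with -1.60 (-2.84 to -0.11), and Bmp5, with its 1 read in PF. The median of all genes was 0.30 higher in PF. With Rn45s counted in the totals, the ratios of Bmp2 and Bmp8a turned to 0.18 and 0.019. Against SAG plate 1 alone, for which that median was 0.02, there were again 5 higher in SAG (16.5% of all genes) and none higher in PF (16.7%). They were Gdf10, Bmp2, Bmp5, Bmp7 and Gdf5, so Bmp3 and Bmp8a no longer counted. The Gdf10 ratio was then -1.01 (-1.08 to -0.77), next to the 2-fold limit.

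Between COR and SAG, Bmp8a was higher in COR (18.9% of all genes were), with a log2 ratio of 1.32 (0.05 to 2.26), and Gdf10 higher in SAG (12.5% of all genes), with -2.59 (-3.10 to -1.10). With SAG plate 1 alone, Bmp8a remained higher in COR (16.2% of all genes) with 2.18. Gdf10, Bmp2, Bmp5, Bmp7 and Gdf5 were higher in SAG (15.6% of all genes), with the largest log2 ratio for Gdf5, of -5.48. Without the cell of SAG plate 1 with most reads of the gene, Gdf10, Bmp5 and Bmp7 each fell under 2-fold. That plate was then at 173, 9.71 and 36.2 CPM, against 119, 6.37 and 21.6 CPM for COR.

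Against GP, Bmp3 and Gdf10 were counted higher in each of the 3 sutures and Bmp5 lower. In PF, Bmp3 and Gdf10 were higher than in GP (7.56% of all genes were), with log2 ratios of 3.45 (2.94 to 5.68) and 2.13 (1.13 to 2.67). Higher in GP than in PF (8.61% of all genes) were Bmp5, with its 1 read in PF, and Bmp8a, with -1.22 (-1.37 to -0.22). In COR, Bmp3, Bmp8a and Gdf10 were higher than in GP (6.39% of all genes), with 2.88 (2.39 to 6.38), 1.77 (0.73 to 2.84) and 1.87 (0.92 to 2.34). The Gdf10 difference between COR and GP needs 1 cell of COR plate 1. Without it that plate was at 35.6 CPM, below GP plate 1 with 61.5 CPM. Higher in GP than in COR (7.02% of all genes) were Bmp5, with -3.57 (-6.95 to -3.30), and Gdf5, with -2.88 (-5.27 to -2.67).

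The SAG comparison with GP ran the same way. Bmp3, with 5.78 (3.79 to 8.50), and Gdf10, with 4.46 (2.21 to 5.24), were higher in SAG (12.4% of all genes), and Bmp5, with -2.42 (-5.22 to -1.15), was higher in GP (18.3%). With SAG plate 1 alone there were 5 higher in SAG (16.7% of all genes), namely Bmp2, Bmp3, Bmp7, Gdf5 and Gdf10, and again Bmp5 in GP (17%). Without 1 cell of SAG plate 1, Bmp7 was at 36.2 CPM there against 17.9 for GP, just under 2-fold on the log2(CPM+1) scale. The comparisons share their tissues, so the repeated pattern of Bmp3, Bmp5 and Gdf10 rests in part on the same GP cells.

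A gene was said to mark a tissue when it had at least 10 CPM there, at least 2-fold more than in each of the other tissues, and both plates above the other 6. Among the 8 ligands none marked PF, as 0.955% of all genes did. Gdf10 marked SAG, as did 5.82% of all genes. Bmp8a marked COR, as did 0.721%, and Bmp5 marked GP, as did 1.82%. Without SAG plate 2, Bmp2, Bmp7 and Gdf5 also marked SAG. There SAG plate 1 alone has to lie above the other tissues, and the share of all genes that then marks SAG was not worked out. The number of ligands under that setting therefore says nothing about the ligands. Gdf10 did not mark SAG when Rn45s was counted in the totals, when each cell weighed the same, on the plate 1 cells alone, or with at least 1500 genes and 50000 reads per cell. Bmp8a did not mark COR when each cell weighed the same or with a threshold of 4-fold. Its mark also needs 1 cell of COR plate 1, without which that plate was at 1.27 CPM. Markers of cartilage moved with SAG as well. All 10 genes of the chondrocyte list were read there, at 20969 and 14114 CPM in sum on the 2 plates, against 252 to 4678 CPM on the other 6, where Matn1 was at 0 in PF and COR. Their part in the SAG values was not tested.

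The share of cells with a read told how widely each ligand was expressed. Gdf10 was read in 105 of the 325 cells, Bmp3 in 67, Bmp2 in 40, Bmp5 in 35, Bmp7 in 33, Bmp4 in 30, Bmp8a in 18, Gdf5 in 17 and Bmp6 in 8. At least 1 ligand was read in 73.3% of the SAG cells (Clopper-Pearson 95% interval 62.6 to 82.2), 71.3% for PF (60.6 to 80.5), 64.1% for GP (52.4 to 74.7) and 59.5% for COR (47.4 to 70.7). These intervals take cells as the unit, cover counting error only and compare no tissues. The share was 76.7% on SAG plate 1. No more than 4 ligands were read in any cell.

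For Gdf10 the share was 46.5% for SAG (35.7 to 57.6), 44.8% for PF (34.1 to 55.9), 21.6% for COR (12.9 to 32.7) and 12.8% for GP (6.32 to 22.3). The PF plates gave 47.1% and 43.4%, the COR plates 12.5% and 24.1%, and the GP plates 15% and 12.1%. The Gdf10 levels of PF and COR were 143 and 119 CPM. Both PF plates had a higher share than both COR plates, but no test was possible. SAG plate 1, at 30% of cells (14.7 to 49.4), had a higher Gdf10 level than either PF plate and a lower share of cells. Cells with fewer than 100000 reads other than Rn45s were then left out (17 PF, 11 GP, 6 SAG and 3 COR cells) and the rest thinned to that number. The Gdf10 shares were then 46.2% for SAG, 44.3% for PF, 21.1% for COR and 13.4% for GP.

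Bmp5 was read in 33.3% of GP cells (23.1 to 44.9), with 35% and 32.8% on its plates. The shares in the other tissues were 5.81% for SAG (1.91 to 13), 4.05% for COR (0.844 to 11.4) and 1.15% for PF (0.0291 to 6.24). Both GP plates were above every suture plate, where the highest share was 13.3% on SAG plate 1.

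Bmp3 was read in 27.9% of the SAG cells (18.8 to 38.6), 26.4% for PF (17.6 to 37), 20.3% for COR (11.8 to 31.2) and 6.41% for GP (2.11 to 14.3). The SAG plates gave 33.3% and 25%, the PF plates 23.5% and 28.3%, and the COR plates 43.8% and 13.8%, so the plates of the 3 sutures overlapped. Bmp8a was read in 10.8% of COR cells (4.78 to 20.2) and 2.33% to 6.41% of the cells of the other tissues. Bmp2 had its highest share on SAG plate 1, with 43.3% (25.5 to 62.6), and 3.57% (0.435 to 12.3) on SAG plate 2. Gdf5 was read in 23.3% of the cells of SAG plate 1 (9.93 to 42.3) and 1.79% of those of plate 2 (0.0452 to 9.55).

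**Figure D3:**
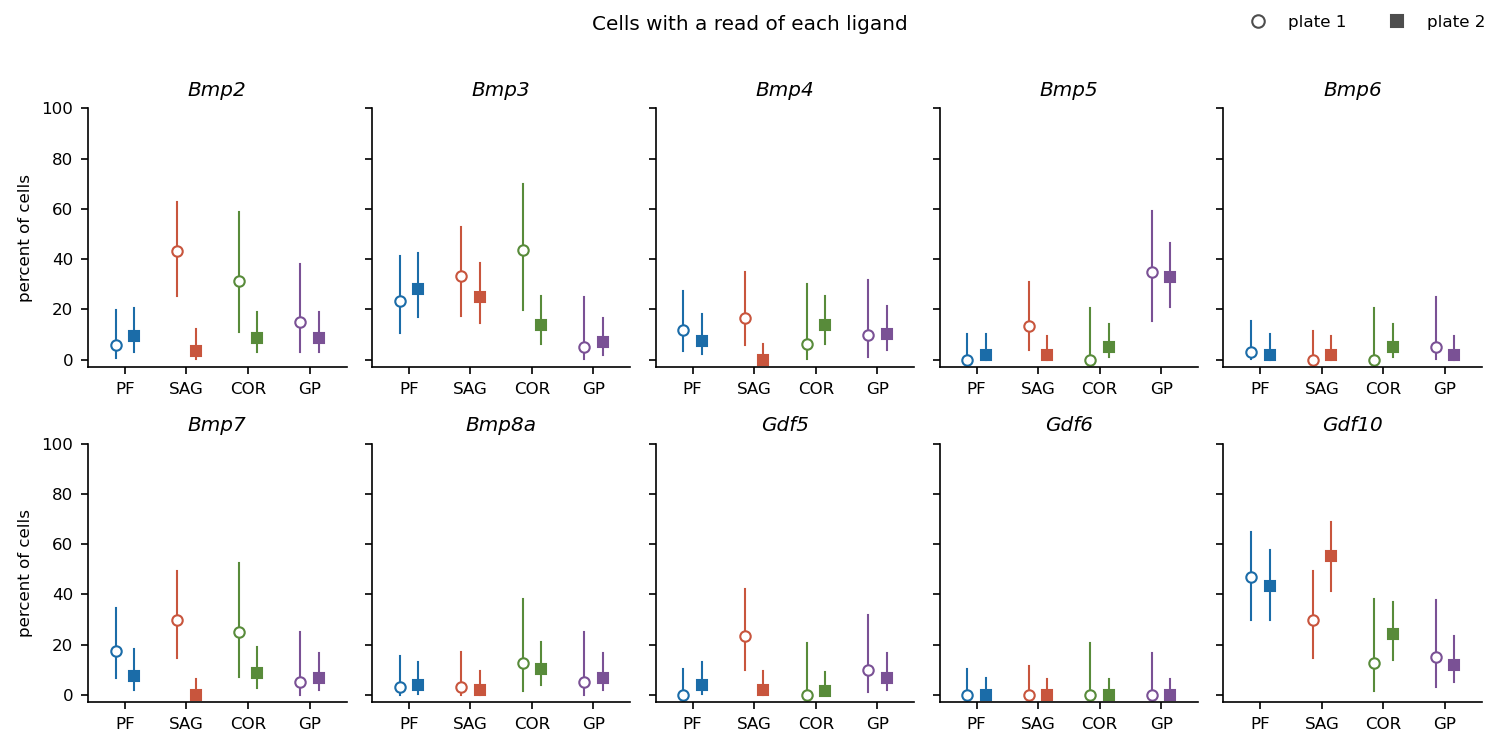
Percent of cells with at least 1 read of each ligand (y axis) by tissue, with open circles for plate 1, filled squares for plate 2 and bars for the exact 95% binomial interval. Gdf10 reached 47.1% and 43.4% on the PF plates, and Bmp5 was at 35% and 32.8% on the GP plates and at 13.3% or less on the suture plates.

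Within single cells the levels of a ligand ranged widely. Among cells with a read, Gdf10 had a median of 1025 CPM for SAG (lowest 2.18, highest 8662), 416 for COR (1.30 to 2243), 328 for PF (2.56 to 3826) and 211 for GP (1.5 to 803). On SAG plate 1 alone the median was 584 CPM. Bmp3 had a median of 688 CPM for SAG, 222 for COR, 129 for PF and 111 for GP, and on SAG plate 2 it was 1682 against 272 on plate 1. The 26 Bmp5 cells of GP had a median of 209 CPM, from 5.17 to 677. Bmp8a had a median of 430 CPM in its 8 cells of COR. Gdf5 reached 2931 CPM in 1 cell of SAG plate 1.

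**Figure D4:**
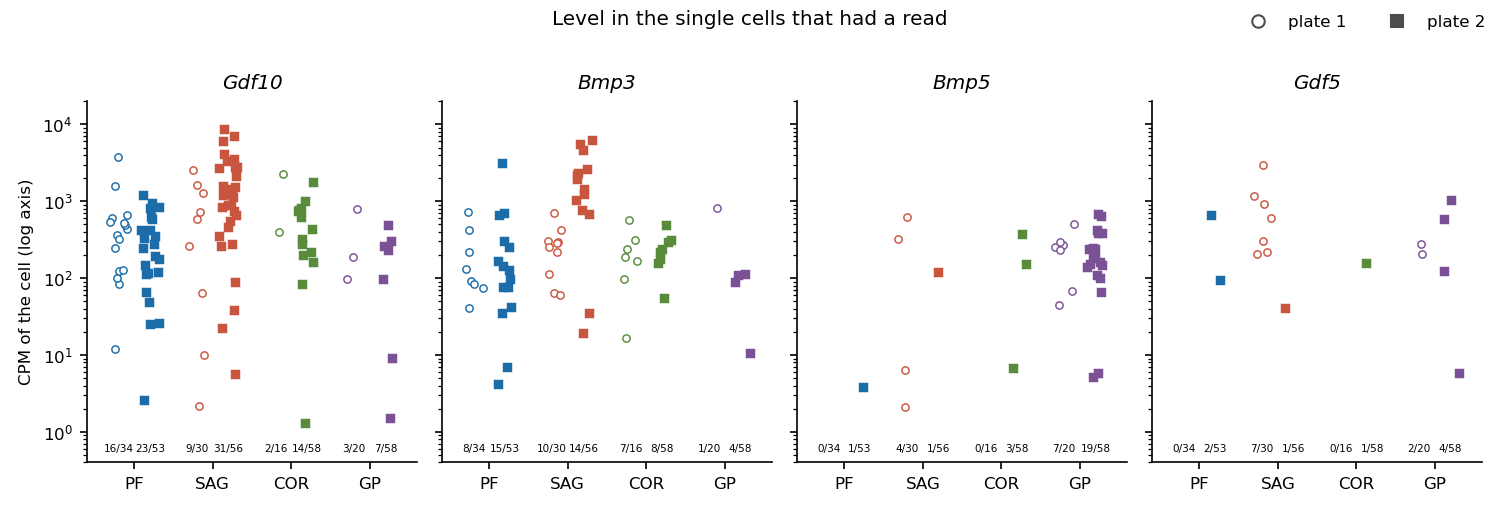
Level in each cell with a read (y axis, CPM of that cell, log scale) for Gdf10, Bmp3, Bmp5 and Gdf5, by tissue and plate (open circles plate 1, filled squares plate 2). The small fractions give the cells with a read over all cells of the plate, and Gdf10 cells span 1.30 to 8662 CPM.

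Ligands were next compared within cells. Bmp2 was read in 3 of the 105 cells with Gdf10 (2.86%) and in 37 of the 220 cells without (16.8%). The 3 cells were all in SAG, 2 of them on plate 1, where 11 of the 21 cells without Gdf10 had Bmp2. In PF, COR and GP together no cell had both, although 7, 10 and 8 cells of these tissues had Bmp2. The other classical ligand went the other way in PF and COR, where Bmp4 was read in 7 of 39 Gdf10 cells against 1 of 48 others, and in 4 of 16 against 5 of 58.

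The divergent pair was shared in part. Bmp3 was read in 8 of 39 Gdf10 cells of PF against 15 of 48 others, in 10 of 40 against 14 of 46 in SAG (3 of 9 against 7 of 21 on plate 1), and in 0 of 16 against 15 of 58 in COR. Bmp2 was found more often with Bmp3 in the sutures, in 6 of 23 Bmp3 cells of PF against 1 of 64 others, in 5 of 15 against 5 of 59 in COR, and in 6 of 24 against 9 of 62 in SAG (5 of 10 against 8 of 20 on plate 1). In GP it was in 0 of 5 against 8 of 73. In SAG, 7 of the 8 Gdf5 cells also had Bmp2, against 8 of 78 others, and all 7 were on plate 1, where 6 of 23 others had it. In GP, 8 of the 10 Gdf10 cells had Bmp5, against 18 of 68 others. All genes of a cell share its depth. Over both plates the Gdf10 cells of PF were deeper, with a median of 382769 reads other than Rn45s against 263055. The plates differed, with 116192 against 207306 on PF plate 1 and 519219 against 401210 on PF plate 2. Bmp2 cells and Bmp3 cells of PF were also deeper than the others, with medians of 702526 against 263055 and 478819 against 256760.

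Marker lists of cell types were also summed over the sorted cells of each tissue, which does not show which cells held the reads. Osteoblast genes were read in every tissue, all 8 of the list, at 101189 to 119829 CPM in sum in PF, COR and GP and 33292 CPM in SAG. Endothelial genes were at 16.4 CPM or less in sum, with Pecam1 and Emcn at 0 in all tissues, and blood cell genes at 15.7 CPM or less. The classes below are cells with and without a read of a ligand, and no test was made because cells of a tissue are no replicates.

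Gdf10 cells of the PF and COR sutures less often had reads of 3 osteoblast genes. In COR, Sp7, the osteoblast transcription factor osterix, was read in 0 of 16 Gdf10 cells against 44 of 58 others. Ibsp, which encodes bone sialoprotein, was read in 0 of 16 against 19 of 58, and Bglap, osteocalcin, in 1 of 16 against 28 of 58. In PF, Sp7 was read in 8 of 39 Gdf10 cells against 23 of 48, Ibsp in 3 against 24, and Bglap in 2 against 20. The osteoblast list as a whole was read in all Gdf10 cells of both sutures. It summed to 66169 CPM in those of PF against 162191 in the others, but the median cells had 64460 and 74589 CPM. In COR the sums were 57823 against 140349 CPM and the medians 49664 and 58156.

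Tnmd, the tendon membrane protein tenomodulin, went the other way. It was read in 25 of 39 Gdf10 cells of PF against 11 of 48 others, and in 9 of 16 against 6 of 58 in COR. The tenocyte list as a whole summed to 684 CPM in the Gdf10 cells of PF against 148 in the others, and to 371 against 42.1 in COR. In SAG, Gdf10 cells had Sox9, the cartilage transcription factor, in 34 of 40 against 29 of 46, and Col2a1, cartilage collagen, in 31 against 25. On SAG plate 1 alone, Sox9 was read in 6 of 9 Gdf10 cells against 12 of 21 others, and Col2a1 in 9 of 9 against 13 of 21. In GP, the 10 Gdf10 cells had Sp7 in 5, against 13 of 68, and Tnmd in 6, against 35 of 68. Their chondrocyte list summed to 14177 CPM against 2044, while the median cell had 242 CPM against 411, so the sum rests on few cells.

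Bmp3 cells of PF and COR had the reverse of the Gdf10 split for these osteoblast genes. In PF, Sp7 was read in 16 of 23 Bmp3 cells against 15 of 64 others, Ibsp in 13 against 14, and Bglap in 14 against 8. In COR these were 12 of 15 against 32 of 59 for Sp7, 11 against 8 for Ibsp and 10 against 19 for Bglap. On COR plate 1 only Ibsp split this way, in 6 of 7 against 3 of 9, with Sp7 in 5 of 7 against 7 of 9 and Bglap in 3 of 7 against 4 of 9. On SAG plate 1, Sp7 was read in 6 of 10 against 2 of 20. In GP, both Bmp3 cells (2 of 5 against 16 of 73) and Gdf10 cells more often had Sp7, and in SAG Col2a1 was read in 16 of 24 Bmp3 cells against 40 of 62. The osteoblast list summed to 214192 CPM in the Bmp3 cells of PF against 67214 in the others, and to 334929 against 66981 in COR. Bmp3 cells of PF were deeper, with a median of 478819 reads other than Rn45s against 256760. Those of COR were not, with 417698 against 472329. The part of depth was not tested. Acta2, smooth muscle actin, was read in 2 of 23 Bmp3 cells of PF against 28 of 64 others.

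The other ligands were mixed in this respect. All 7 Bmp2 cells of PF had Sp7 and Bglap, against 24 and 15 of the 80 others. They were also deeper, with a median of 702526 reads other than Rn45s against 263055, and the part of depth was not tested. In COR, Sp7 was read in 9 of 10 Bmp2 cells against 35 of 64, but Bglap in 4 of 10 against 25 of 64, and the osteoblast list summed to 110218 against 121017 CPM. The split was not seen on SAG plate 1, with Sp7 in 3 of 13 Bmp2 cells against 5 of 17 and Bglap in 2 of 13 against 2 of 17. Of the 8 Bmp8a cells of COR, 7 had Ibsp, against 12 of 66 others, and their osteoblast list summed to 478569 CPM against 74708. Bmp4 cells had Sp7 in 1 of 8 against 30 of 79 in PF, and in 4 of 9 against 40 of 65 in COR. In COR, Bglap was read in 2 of 9 Bmp4 cells against 27 of 65, but Ibsp in 3 of 9 against 16 of 65. The osteoblast list summed to 128217 CPM in the Bmp4 cells of COR against 118618, and to 58609 against 123475 in PF. Bmp7 cells of COR had Bglap in 1 of 9 against 28 of 65 and Sp7 in 5 of 9 against 39 of 65. They had Ibsp in 5 of 9 against 14 of 65, and their osteoblast list summed to 265895 CPM against 97996. In PF, Bglap was read in 6 of 10 Bmp7 cells against 16 of 77. Bglap has a near-identical copy, Bglap2, so its reads may have been split or lost in counting.

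The Bmp5 cells of GP more often had Tnmd, in 19 of 26 against 22 of 52 others, and less often Col2a1, in 4 of 26 against 17 of 52. Sp7 was read in 9 of 26 against 9 of 52. The fibroblast list summed to 15106 CPM in them against 5104, with 14592 against 4073 on plate 1 and 15239 against 5289 on plate 2. Their chondrocyte list summed to 329 CPM, against 6423 CPM in the other GP cells, with medians of 264 and 424 CPM, so the gap in sums rests on few cells. On plate 1 the sums were 294 and 723 CPM. The osteoblast list did not part them, with 94440 against 105780 CPM. Bmp5 cells were deeper, with a median of 435652 reads other than Rn45s against 269200, and the tenocyte list summed to 2909 against 2577 CPM.

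**Figure D5:**
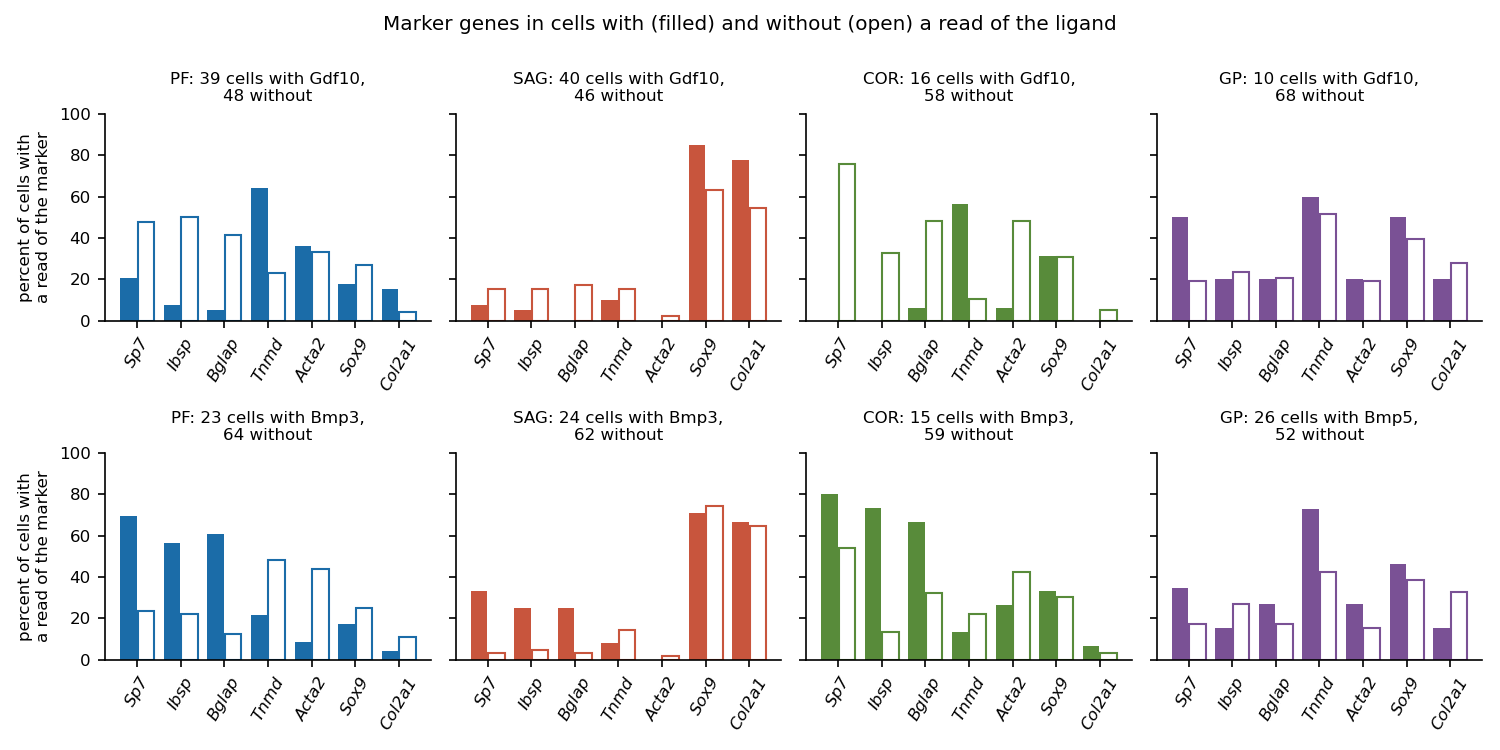
Percent of cells (y axis) with a read of 7 marker genes (x axis) among cells with a read of the named ligand (filled bars) and without (open bars), in 1 tissue per panel. In COR no Gdf10 cell had Sp7 or Ibsp, Bmp3 cells of PF and COR, over both plates, more often had Sp7, Ibsp and Bglap, and Bmp5 cells of GP more often had Tnmd.

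Beside the ligands, genes that receive, block or cut them were looked up in lists chosen by name. Of 11 receptors and co-receptors, 8 reached 10 CPM. In PF 3 were higher than in COR (5.27% of all genes were) and 2 higher than in GP (7.56%). None went the other way (6.6% and 8.61%). Between COR and GP none met the count in either direction (6.39% of all genes higher in COR and 7.02% in GP). Between PF and SAG 1 was higher in each (16.9% of all genes in PF and 12.4% in SAG). In SAG 2 were higher than in COR (12.5%) and none lower (18.9%), and 3 higher than in GP (12.4%) and none lower (18.3%). With SAG plate 1 alone, the GP comparison gave 2 higher in SAG (16.7%) and 2 in GP (17%). The median log2 ratio of the 8 was 0.84 for PF to COR, 0.65 for PF to GP and -0.11 for COR to GP, against medians over all genes of 0.01, 0.09 and 0.06. Acvrl1, the type I receptor ALK1, was read at 34 and 37.1 CPM in PF, 4.07 and 18.4 in SAG, 1.24 and 10.2 in COR and 0 and 2.80 in GP, and marked PF. Acvr1, another type I receptor, was read at 63.4 and 69.6 CPM in PF and between 3.49 and 29.9 on the other plates apart from SAG plate 2, which had 103. Bmpr1a, the main type I receptor for BMP2 and BMP4, was at 70.1 to 213 CPM on all plates and Bmpr2, the type II receptor, at 30.6 to 126.

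Of 17 antagonists, 11 reached 10 CPM. GP had 4 of them higher than PF (8.61% of all genes were) with 1 the other way (7.56%). It had 5 higher than COR (7.02%) with 0 the other way (6.39%). Against SAG it had 4 higher (18.3%) with 1 the other way (12.4%). With SAG plate 1 alone the last were 5 (17%) and 2 (16.7%), of 10 tested. Their median log2 ratios were -0.75 for PF to GP and -0.36 for COR to GP. Grem1, gremlin, was read at 97.4 and 14.2 CPM in GP, at 46.2 on SAG plate 2 and at 0 on the other 5 plates. Fst, follistatin, was read at 9.72 and 54 CPM in GP, 9.47 and 1.93 in PF, 4.32 and 0.799 in COR and 0 in SAG. Sostdc1, a secreted inhibitor of BMP and Wnt signals, was read at 89.9 and 196 CPM in GP, and both it and Fst marked GP. Chrdl1, chordin-like 1, was higher in PF than in GP, at 215 and 95.4 CPM against 69.2 and 0.255. Nog, noggin, which binds BMP2 and BMP4, stayed below 10 CPM in each tissue.

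Of 16 signal transducers and response genes, 14 reached 10 CPM. PF had 3 higher than GP (7.56% of all genes were), COR 3 (6.39%) and SAG 4 (12.4%). None was lower (8.61%, 7.02% and 18.3% of all genes). Msx1 and Msx2, homeobox genes that BMPs induce in the skull, were read at 0.810 and 1.02 and at 0 and 5.91 CPM in GP. In the sutures Msx1 was at 4.32 to 88.8 CPM and Msx2 at 22.1 to 95.4. Id1, a common early target, was at 23.5 and 45.1 CPM in COR and 14.2 and 19.8 in PF, and 78 and 0 on the SAG plates. In PF 3 genes were lower than in COR (6.60% of all genes were) and none higher (5.27%).

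Of 8 processing enzymes, 7 reached 10 CPM, and 3 were higher in PF than in GP (7.56% of all genes were) with none the other way (8.61%). Pcsk5, a convertase that cuts growth factor precursors, was read at 210 and 128 CPM in PF and 18.8 to 68.2 on the other plates, and marked PF. Of 21 other ligands of the superfamily, 5 reached 10 CPM. Inhba, the activin A subunit, was read at 131 and 40 CPM in GP, 12.7 and 21.7 in PF, 18.5 and 19.3 in COR and 0 in SAG, and marked GP. Tgfb2 was higher in GP than in PF, at 146 and 162 against 65.3 and 48.6 CPM.

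For each of the 8 ligands that reached 10 CPM, the genes most like it over the 8 plates were sought by the Pearson correlation of log2(CPM+1) among the 10686 genes. The plates share tissue, depth and library, and with so many genes high values arise in any case, so this is a description. Closest to Gdf10 were Rab11fip5 (r = 0.98) and 4933421O10Rik (0.97). Closest to Bmp3 were Tstd2 (0.98) and Six2 (0.96), a homeobox gene, which was read at 115 CPM for SAG, 28.4 for COR, 28.3 for PF and 2.53 for GP. Closest to Bmp5 were Gins3 (0.97) and Clec14a (0.96), to Bmp8a Efemp1 (0.91) and Adprh (0.89), and to Gdf5 Stambpl1 (0.97) and Ppp1r3c (0.95). Efemp1 was read at 102 CPM in COR, 19.2 in SAG and 0 in PF and GP. For Bmp2 they were Atp10a (0.90) and Trim8 (0.89), for Bmp4 Armcx6 (0.99) and Klhl42 (0.98), and for Bmp7 Rad1 (0.98) and Gtf3c4 (0.98).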

How the data were processed

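Single cells were sorted into 96-well plates and read by full-length RNA-seq in the manner of SMART-seq2. The authors deposited 8 tables of raw counts, whole numbers of reads for every gene in each cell, with a table per plate and 2 plates per tissue. The submitters' processing notes name STAR 2.5.3a, HTSeq and the mouse build mm9. The annotation and the use of strand are not given in the sources used here. There are no molecular identifiers, so counts include PCR copies. No column was left without a cell. Reads were summed over cells and divided by the reads other than Rn45s (CPM). Ratios used a pseudocount of 1 CPM. The code of the rule for counted differences was run on simulated plate sums of PF and COR, with 4-fold changes and a spread set by hand. Reads that rest on 1 cell were not simulated, so this run does not show how often the rule errs for these ligands. Intervals are exact at 95%. Python 3.11.15, scipy 1.17.1 and edgeR 4.0.16 were used. Lengths and overlaps came from the mm9 genome with GENCODE M1. All 10 ligands were named, pathway genes where counted, at most 6 a list, with the largest ratio first, beside further ones chosen after their values were seen, namely Bmpr1a, Bmpr2, Nog and Id1. The 10 ligands and the lists were chosen with earlier results of these data known.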

Additional observations from a re-analysis of the deposited data

How the results depend on the processing

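Of the 20 member differences counted between tissues, 14 to 20 were still counted under the 11 other settings that bear on them, and the sign turned only with Rn45s counted in the totals, for Bmp2 from PF to SAG (log2 ratio 0.18) and Bmp8a from PF to SAG (0.019). In all there were 32 such differences on plate 1 cells alone and 36 on plate 2 cells alone, where no second plate has to follow the sign, and 14 to 27 under the others. The number of ligands that mark a tissue, 3, became 1 when each cell weighed the same, 5 with at least 1500 genes and 50000 reads per cell (which leaves no cell of SAG plate 2), 5 on plate 2 cells alone and 6 without SAG plate 2. The share of all genes that mark a tissue was worked out for the main setting only, so these other numbers say nothing about the ligands. Bmp5 marked GP under every setting run. The summed level of the 10 ligands in CPM became 253.8 for SAG, 208.8 for PF, 202.2 for COR and 145.0 for GP with Rn45s counted, 358.8 in PF when each cell weighed the same, 226.4 in PF and 214.0 in COR without the cell with most reads, and 315.8 in PF, 347.8 in COR and 276.3 in GP on plate 1 cells alone. The cause was not tested. Some marker shares were redone with the stricter cell filter and with at least 5 reads, 2 settings added after seeing the data. In PF and COR they were Sp7 and Tnmd for Gdf10 cells and Ibsp for Bmp3 cells. The others were Bglap for Bmp2 cells of PF, Ibsp for Bmp8a cells of COR and Tnmd for Bmp5 cells of GP. All of these kept their direction, and no other marker share was redone, among them every one of SAG. Cells with both Bmp3 and Gdf10 went from 18 to 11 under the stricter cell filter. No paired analysis was possible because plate numbers name plates and nothing links plates of different tissues, and because no test was made. With no animals named and 2 plates a tissue, neither the number of mice behind a value nor the spread between them is known.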
